A study of Mus musculus with 27 samples.

Results

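The genes described here are the matrix metalloproteinases, their tissue inhibitors and the secreted ADAMTS proteases of the mouse, followed from fibroblasts to induced pluripotent cells. They are the 46 of 20156 genes in the expression tables whose symbol begins with Mmp, Timp or Adamts followed by a digit. They comprise 23 Mmp genes, 4 Timp genes and 19 Adamts genes. The rule itself used no measured value, but it was set with earlier results of these data known. The 3 cell types compared are MEFs, pre-iPSCs and iPSCs. MEFs are embryonic fibroblasts taken from E13.5 embryos with an Oct4-GFP transgenic allele and a Rosa26 allele, on a CBA/CaJ and C57BL/6J background crossed to 129Sv/Jae according to the methods, and were kept for at most 3 passages. Pre-iPSCs are stable, incompletely reprogrammed cells, and iPSCs are the fully reprogrammed cells that correspond to them, both made from such MEFs by retroviral delivery of the 4 Yamanaka factors and grown for 6 passages on a feeder layer of inactivated MEFs. The pre-iPSCs and iPSCs came from clones, and which library holds which clone is not given in the sources used here, so p-values measure only the spread between these libraries. Each cell type had 2 RNA-seq libraries and 2 libraries each of histone H3, H3K4me3 and H3K27me3 nucleosomes, and 1 library of H3K9me3. MEF nuclei were digested with another amount of micrococcal nuclease (MNase), for another time, than those of pre-iPSCs and iPSCs.

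Matrix metalloproteinases are zinc endopeptidases that are made as inactive proenzymes and cut collagens, gelatin, fibronectin, proteoglycans and cell-surface proteins. Most are secreted, and the membrane-type members stay anchored to the cell surface. The Timp proteins bind the active site of these enzymes and inhibit them, and Timp3 also inhibits ADAM and ADAMTS proteases. ADAMTS proteases are secreted enzymes with thrombospondin repeats that cleave aggrecan and versican, trim procollagens or act on other matrix proteins. Fibroblasts are a main source of these proteins in connective tissue.

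Expression values were FPKM, mapped fragments scaled to transcript length and to the size of the library, which are per length and can be compared between genes. Differences were taken as log2(FPKM + 1) with limma, with the table as a term, since 1 library of each cell type was deposited in each of 2 tables normalized apart. The tables give no fragment counts. A gene rose or fell where the Benjamini-Hochberg adjusted p over all 12401 genes tested was below 0.05 and the log2 change was at least 1, and log2 changes of genes near 0 FPKM are understated on this scale. Of the 46 members, 26 had the mean of 0.5 FPKM over the 6 libraries that the test required. With 2 libraries a cell type, an exact permutation test of a single gene cannot give a p below 0.333, so all p-values given are those of models fitted across all genes. Values of paired libraries are given in the order replicate 1, replicate 2.

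The libraries carried the markers of their labels. The 8 pluripotency markers summed to 0.0233 and 0.904 FPKM in MEFs and 2282 and 2179 FPKM in iPSCs, where all 8 reached 1 FPKM. In pre-iPSCs, the 8 summed to 632 and 3524 FPKM. Dppa3 was listed at 0 in both of these libraries, Nanog at 0.519 and 0 FPKM, and Pou5f1, which the retroviral factors include, at 378 and 3184 FPKM. Tdgf1 was at 228 and 333 FPKM. Against MEFs, Pou5f1, Tdgf1, Utf1 and Dppa5a rose in pre-iPSCs, where 7.39% of all genes tested rose. Nanog, Zfp42, Esrrb and Dppa3 did not pass (limma). The 12 fibroblast markers summed to 4986 and 11228 FPKM in MEFs, to 467 and 526 FPKM in pre-iPSCs and to 244 and 353 FPKM in iPSCs, and none of the 12 was at 0 in any library. Between 10370 and 10995 genes reached 1 FPKM in each library.

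The summed FPKM of the inhibitors, of the Mmp genes and of the Adamts genes were each lower in every iPSC and pre-iPSC library than in every MEF library. The 4 Timp genes summed to 1180 and 1860 FPKM in MEFs, to 278 and 250 FPKM in pre-iPSCs and to 107 and 109 FPKM in iPSCs. The 23 Mmp genes summed to 295 and 307 FPKM in MEFs, to 106 and 99.5 FPKM in pre-iPSCs and to 85.6 and 117 FPKM in iPSCs. The 19 Adamts genes summed to 97.2 and 61.4 FPKM in MEFs, to 28.6 and 21.5 FPKM in pre-iPSCs and to 8.69 and 13.4 FPKM in iPSCs. The FPKM of all genes summed to between 392420 in the second iPSC library and 818210 in the second MEF library, so the sums are also given as a share of it. The Mmp share of the 2 MEF libraries was 0.0599% and 0.0376%, that of the pre-iPSC libraries 0.0241% and 0.02001%, and that of the iPSC libraries 0.0162% and 0.0299%. The Timp share of the 2 MEF libraries was 0.240% and 0.227%, that of the pre-iPSC libraries 0.0630% and 0.0503%, and that of the iPSC libraries 0.0202% and 0.0278%. The Adamts share of the 2 MEF libraries was 0.0197% and 0.00750%, that of the pre-iPSC libraries 0.00647% and 0.00431%, and that of the iPSC libraries 0.00165% and 0.00341%. On this scale, too, every MEF library was above the others for each family, but the gap was narrower for the Mmp and Adamts genes of the second MEF library. The ratio of Timp to Mmp FPKM, which does not depend on the total, was 4.00 and 6.05 in the MEF libraries, 2.62 and 2.51 in those of pre-iPSCs and 1.25 and 0.930 in those of iPSCs. The composition differed in iPSCs: Mmp2 and Mmp14 made up 78.5% and 72.4% of the Mmp sum in MEFs, 68.5% and 76.2% of it in pre-iPSCs and 46.4% and 34.9% in iPSCs, while Mmp14 led the Mmp genes in both MEF libraries and the first pre-iPSC library, Mmp2 in the second, Mmp11 in the first iPSC library and Mmp3 in the second. These sums are of RNA, not of protein or enzyme activity, and no test was made on them.

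**Figure D1:**
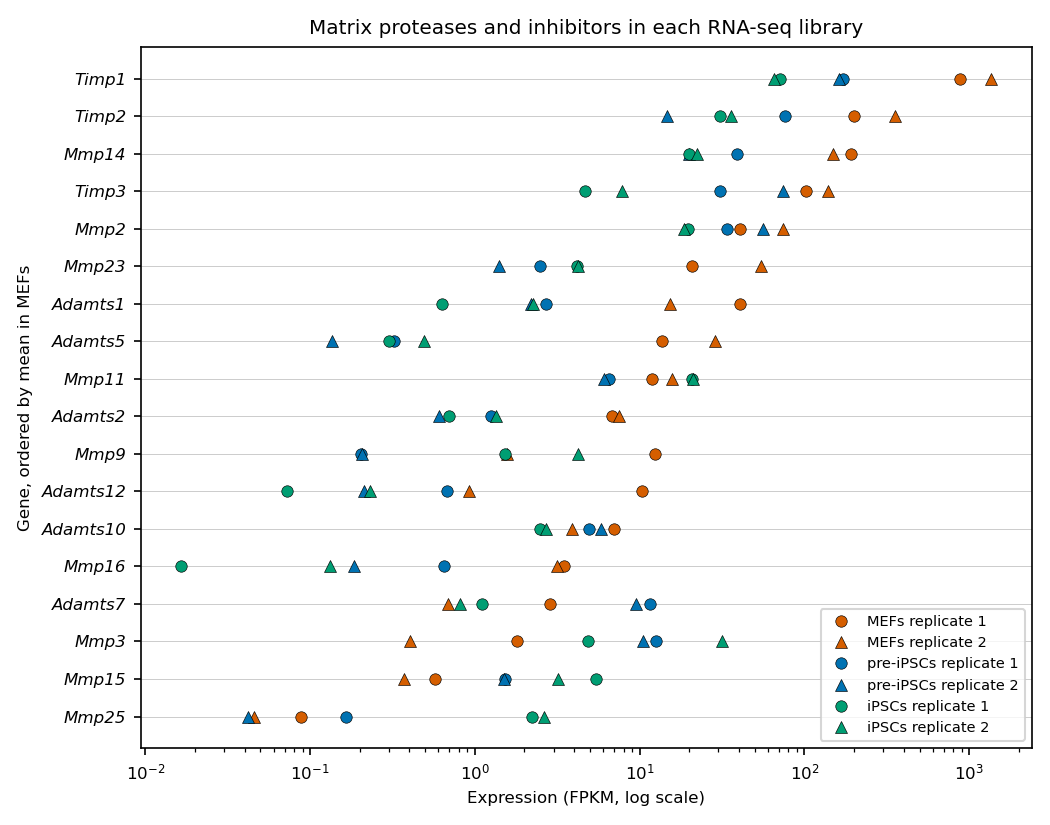
FPKM (log axis) of the 18 members named with a value in each library, in each of the 6 RNA-seq libraries, coloured by cell type. The inhibitors Timp1, Timp2 and Timp3 and the proteases Mmp14, Adamts1 and Adamts5 have their highest points in MEFs (Timp1 at 878 and 1365 FPKM), Adamts7 in pre-iPSCs (11.5 and 9.54 FPKM), and Mmp11, Mmp15 and Mmp25 in iPSCs.

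In the comparison of pre-iPSCs with MEFs, 1 of the 26 tested members rose and 9 fell, where 7.39% of all genes tested rose and 9% fell. The members that fell included all 3 tested Timp genes, 3 of 13 tested Mmp genes and 3 of 10 tested Adamts genes, and the member that rose was Adamts7. The median log2 change of the 26 members was -1.04, against -0.04 over all genes tested. In iPSCs compared with MEFs, 3 members rose and 11 fell, where 10.3% of all genes rose and 15.5% fell. The members that rose were Mmp3, Mmp15 and Mmp25, and those that fell were 3 Timp, 4 Mmp and 4 Adamts genes. Their median log2 change was -0.74, against -0.14 over all genes tested. These comparisons share the MEF libraries. In iPSCs compared with pre-iPSCs, Mmp11 and Mmp25 rose and Timp3 and Adamts7 fell, where 3.91% of all genes rose and 4.71% fell, and the median of the members was -0.08 against -0.09 over all genes. The numbers of members called in these comparisons changed when 1 library was left out, as described further on. In bulk samples, fewer cells of a type and less RNA per cell cannot be told apart. Of the 26 tested members, MEFs held the highest mean FPKM of 21, pre-iPSCs that of 1 and iPSCs that of 4. The same count over all genes is not given here, so this cannot be read as particular to the members. These means were not scaled to the total FPKM of a library, which was highest in the second MEF library.

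**Figure D2:**
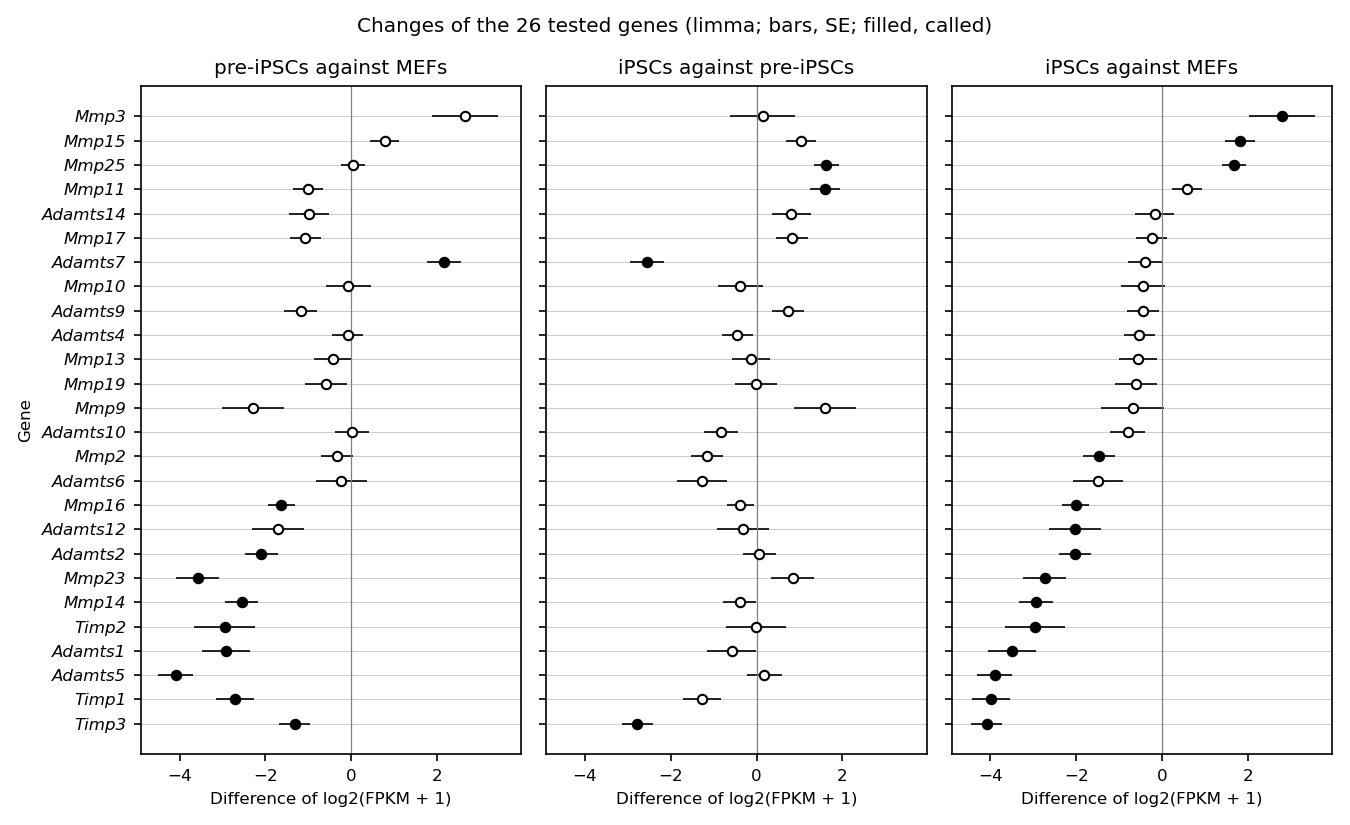
Log2 change of FPKM + 1 of the 26 tested members in each of the 3 comparisons, with bars of 1 standard error from the limma fit; filled points passed the test. Adamts5 lies farthest below 0 in pre-iPSCs against MEFs (-4.09), and Timp3 in iPSCs against MEFs (-4.09).

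Timp1, a secreted inhibitor of most matrix metalloproteinases, was the most abundant member in every library. It had 878 and 1365 FPKM in MEFs, 172 and 162 FPKM in pre-iPSCs and 71.1 and 65.3 FPKM in iPSCs. Its levels did not overlap between any of the cell types, and it supplied between 59.9% and 74.4% of the Timp sum. It ranked 90th and 106th among all genes in MEFs, 346th and 398th in pre-iPSCs, and 966th and 831st in iPSCs. Timp1 fell from MEFs to pre-iPSCs by a log2 change of -2.71 ± 0.44 (SE; limma, adjusted p = 0.0076) and from MEFs to iPSCs by -3.99 ± 0.44 (limma, adjusted p = 0.0015), whereas the difference between iPSCs and pre-iPSCs of -1.28 ± 0.44 did not pass (limma, adjusted p = 0.139). The first of these calls was lost without either pre-iPSC library (limma, adjusted p = 0.086 without replicate 1 and 0.168 without replicate 2).

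Timp2, which inhibits Mmp2 and also takes part in the activation of pro-Mmp2 with Mmp14 at the cell surface, had 199 and 356 FPKM in MEFs, 75.9 and 14.6 FPKM in pre-iPSCs and 30.8 and 35.9 FPKM in iPSCs. Both MEF libraries lay above all others, and the 2 pre-iPSC libraries lay on either side of the iPSC libraries. The log2 change was -2.95 ± 0.70 in pre-iPSCs (limma, adjusted p = 0.030) and -2.96 ± 0.70 in iPSCs against MEFs (limma, adjusted p = 0.021). Without the second pre-iPSC library, the former was -1.54 and did not pass (limma, adjusted p = 0.365), and without the first or the second iPSC library both comparisons failed the test (limma, adjusted p between 0.096 and 0.200), as they did with no filter on low values (0.0952 and 0.0657).

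Timp3, which binds to the extracellular matrix, was the only inhibitor that also fell between pre-iPSCs and iPSCs. It had 102 and 139 FPKM in MEFs, 30.6 and 73.8 FPKM in pre-iPSCs and 4.65 and 7.82 FPKM in iPSCs, with no overlap between cell types. The log2 change was -4.09 ± 0.36 in iPSCs against MEFs (limma, adjusted p = 0.00091) and -2.78 ± 0.36 in iPSCs against pre-iPSCs (limma, adjusted p = 0.0053). The change in pre-iPSCs against MEFs of -1.31 ± 0.36 lay at the threshold (limma, adjusted p = 0.0496) and was lost in 8 of the 12 alternatives, among them the removal of either pre-iPSC library, either iPSC library or the first MEF library (limma, adjusted p between 0.089 and 0.558). Without any 1 of 3 libraries (either iPSC library or the second pre-iPSC library) the change between iPSCs and pre-iPSCs also missed the threshold (limma, adjusted p between 0.050 and 0.091). Timp3 is also in a gene list that the study drew from the same RNA libraries. Timp4, the fourth inhibitor, was listed at 0 in every library but the second of MEFs, which had 0.059 FPKM. Timp1 and Timp3 each overlap a gene on the other strand, Syn1 at 1.46 to 5.90 FPKM and Syn3 at 0.038 to 0.321 FPKM, Timp2 overlaps BC100451 (at most 0.850 FPKM) on its own strand, and whether the reads were counted by strand is not given in the sources used here.

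The bases upstream of Timp1 and Timp2 are shown because both genes fell. Timp2 was called for H3K27me3, as described further on, whereas Timp1 had too few reads of that mark to be tested. Each run is the 150 bases before the gene's start in build mm9, read 5′ to 3′ on the gene's strand, with matches to GGGCGG (the GC box letters) in either orientation in capitals.
Timp1 (chrX:20447142-20447291, plus strand): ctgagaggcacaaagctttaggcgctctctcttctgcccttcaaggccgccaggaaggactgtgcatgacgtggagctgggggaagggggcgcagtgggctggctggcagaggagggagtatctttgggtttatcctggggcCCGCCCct
Timp2 (chr11:118216726-118216875, minus strand): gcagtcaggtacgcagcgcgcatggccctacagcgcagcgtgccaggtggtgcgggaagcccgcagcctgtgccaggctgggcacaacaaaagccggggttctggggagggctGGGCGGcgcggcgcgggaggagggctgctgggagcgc
In the 250 bases before the start, 45.8% of all 20107 distinct promoters held GGGCGG on either strand, so a match is common.

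Of the membrane-type proteases, Mmp14 and Mmp16 fell from MEFs, and Mmp15 and Mmp25 rose. Mmp14, which cuts fibrillar collagen at the cell surface and activates pro-Mmp2, had 191 and 149 FPKM in MEFs, 38.8 and 20.0 FPKM in pre-iPSCs and 20.0 and 22.2 FPKM in iPSCs. All 4 libraries of reprogrammed cells were well below MEFs and overlapped with each other. The log2 change was -2.55 ± 0.39 in pre-iPSCs (limma, adjusted p = 0.0059) and -2.94 ± 0.39 in iPSCs (limma, adjusted p = 0.0027) against MEFs, and these missed the threshold without the second pre-iPSC library (limma, adjusted p = 0.093) and without the first iPSC library (limma, adjusted p = 0.051). Mmp16, another membrane-type protease, had 3.50 and 3.15 FPKM in MEFs, 0.654 and 0.184 FPKM in pre-iPSCs and 0.0165 and 0.131 FPKM in iPSCs. It fell in both comparisons with MEFs, by log2 changes of -1.63 ± 0.31 and -2.01 ± 0.31 (limma, adjusted p = 0.0137 and 0.0048; 0.088 without the second pre-iPSC library and 0.063 without the first iPSC library).

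Mmp15 had 0.572 and 0.372 FPKM in MEFs, 1.53 and 1.51 FPKM in pre-iPSCs and 5.41 and 3.20 FPKM in iPSCs, which is an order without overlap. The change in iPSCs against MEFs was 1.82 ± 0.34 (limma, adjusted p = 0.0093; 0.074 without the first iPSC library). Mmp25, a membrane-type protease known best from leukocytes, had 0.088 and 0.046 FPKM in MEFs, 0.166 and 0.042 FPKM in pre-iPSCs and 2.23 and 2.61 FPKM in iPSCs. It was near 0 in every library but those of iPSCs. Its change of 1.68 ± 0.28 in iPSCs against MEFs (limma, adjusted p = 0.0063) passed under every alternative that tested it. Its mean over all libraries, 0.864 FPKM, was too low for the alternative filter of 2 FPKM. The change of 1.63 ± 0.28 against pre-iPSCs (limma, adjusted p = 0.0151) did not pass without the first or the second iPSC library. Mmp17 had means of 4.99, 1.78 and 3.96 FPKM in MEFs, pre-iPSCs and iPSCs and did not pass the test in any comparison, and Mmp24 was at most 0.0882 FPKM.

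The gelatinases Mmp2 and Mmp9 cut denatured collagen and type IV collagen. Mmp2 had 40.8 and 74.0 FPKM in MEFs, 34.0 and 55.8 FPKM in pre-iPSCs and 19.7 and 18.7 FPKM in iPSCs. Pre-iPSCs overlapped with MEFs, and both iPSC libraries were lower than all others. Mmp2 fell in iPSCs against MEFs by -1.47 ± 0.38 (limma, adjusted p = 0.027), but not without either iPSC or either pre-iPSC library, nor after quantile normalization (limma, adjusted p between 0.061 and 0.153). Mmp9 had 12.3 and 1.57 FPKM in MEFs, 0.205 and 0.205 FPKM in pre-iPSCs and 1.53 and 4.24 FPKM in iPSCs, so the iPSC and MEF values overlapped, and no comparison passed (limma, adjusted p = 0.077 for pre-iPSCs against MEFs).

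Among the stromelysins, Mmp3 and Mmp11 were not highest in MEFs. Mmp3, which cuts proteoglycans and fibronectin and activates other proenzymes, had 1.80 and 0.404 FPKM in MEFs, 12.6 and 10.5 FPKM in pre-iPSCs and 4.86 and 31.5 FPKM in iPSCs. All reprogrammed libraries were above MEFs, and the 2 iPSC libraries lay on either side of the pre-iPSCs. The change in iPSCs against MEFs was 2.80 ± 0.76 (limma, adjusted p = 0.034) and fell short without the second iPSC library, at 1.25 (limma, adjusted p = 0.177), and with no filter on low values (0.0965), while that in pre-iPSCs against MEFs was 2.66 ± 0.76 (limma, adjusted p = 0.0555). Macrophage markers were uneven in the same libraries. The 6 macrophage genes summed to 29.7 and 17.1 FPKM in MEFs, 6.29 and 26.03 FPKM in pre-iPSCs and 9.60 and 53.8 FPKM in iPSCs. Lyz2 was at 45.5 FPKM in the second iPSC library, and Ptprc at 0.240 FPKM or less in all libraries. In iPSCs, Emr1 had 0.0712 and 0.969 FPKM, Csf1r 0.118 and 0.714 FPKM, Itgam 1.02 and 1.34 FPKM, and Cd68 5.48 and 5.12 FPKM. Of the 4 tested, 0 passed in any comparison (limma, with 1 at an unadjusted p under 0.05 in each). The second iPSC library had the higher iPSC value of Mmp3, Mmp9 and Mmp12 (1.76 FPKM against 0.170 FPKM). This was not particular to these genes. Other members were also higher there, among them Mmp10, Mmp19, Adamts1 and Timp3, and some were lower, among them Mmp15 and Mmp17. Of the fibroblast markers, S100a4 and Prrx1 were higher there and Thy1 was lower. The part of other cells in these values was not tested.

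Mmp11, also called stromelysin 3, is activated inside the cell by furin. It had 11.9 and 15.7 FPKM in MEFs, 6.503 and 6.09 FPKM in pre-iPSCs and 20.8 and 21.2 FPKM in iPSCs, so the cell types did not overlap and pre-iPSCs were lowest. The rise between pre-iPSCs and iPSCs was 1.59 ± 0.35 (limma, adjusted p = 0.033), and it missed the threshold when any 1 of the pre-iPSC or iPSC libraries was left out (limma, adjusted p between 0.175 and 0.427) or low values were not filtered (0.0502). Mmp10, the third stromelysin, had means of 1.63, 1.48 and 0.868 FPKM in MEFs, pre-iPSCs and iPSCs. Mmp3 and Mmp10 are close paralogs, as are Mmp1a and Mmp1b. The authors kept uniquely mapped reads only, so reads that map to both copies would be missing from these values.

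Mmp23, a protease anchored in the membrane by its amino-terminal end, had 20.7 and 54.5 FPKM in MEFs, 2.49 and 1.41 FPKM in pre-iPSCs and 4.19 and 4.23 FPKM in iPSCs. MEFs were above all others and pre-iPSCs below iPSCs. It fell in pre-iPSCs against MEFs by -3.58 ± 0.50 (limma, adjusted p = 0.0046), a call kept in every alternative, and in iPSCs against MEFs by -2.74 ± 0.50 (limma, adjusted p = 0.0086; 0.089 and 0.106 without the first and the second iPSC library). Mmp19 had means of 2.25, 1.31 and 1.23 FPKM, and the gene 1110012D08Rik on the other strand of the same span, at 4.56 to 29.4 FPKM, exceeded it in every library.

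The 10 Mmp genes Mmp13, Mmp12, Mmp1b, Mmp3, Mmp1a, Mmp10, Mmp8, Mmp27, Mmp20 and Mmp7 lie side by side on chromosome 9 of build mm9, between 7272514 and 7699416, and no other row of the tables lies inside these 426.9 kb. They include the collagenases Mmp1a, Mmp1b, Mmp8 and Mmp13, of which only Mmp13 had enough signal to be tested, with means of 1.52, 0.696 and 0.540 FPKM in MEFs, pre-iPSCs and iPSCs and no call. Mmp3 was the only one of the 10 whose mean exceeded 5 FPKM in a cell type, and Mmp7 was listed at 0 in every library. The pattern TGANTCA, with any base in the middle, includes TGACTCA and TGAGTCA, the letters bound by AP-1 (dimers of Fos and Jun proteins). The 37-base windows below, from the 250 bases upstream of each start, are shown because TGANTCA set these promoters apart in sequence from the other members. They read 5′ to 3′ on the gene's strand, with the match, which is the same motif on both strands, in capitals.
Mmp13 (chr9:7272464-7272500, plus strand): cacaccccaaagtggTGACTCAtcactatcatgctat
Mmp12 (chr9:7347315-7347351, plus strand): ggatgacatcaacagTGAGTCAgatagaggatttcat
Mmp1b (chr9:7388098-7388134, minus strand): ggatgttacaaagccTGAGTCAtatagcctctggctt
Mmp3 (chr9:7445761-7445797, plus strand): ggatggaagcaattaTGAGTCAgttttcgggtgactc
Mmp1a (chr9:7464053-7464089, plus strand): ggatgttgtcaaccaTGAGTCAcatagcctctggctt
Mmp10 (chr9:7502264-7502300, plus strand): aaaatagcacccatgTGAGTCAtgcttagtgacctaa
Mmp20 (chr9:7628121-7628157, plus strand): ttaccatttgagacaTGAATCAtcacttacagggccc
Mmp7 (chr9:7692012-7692048, plus strand): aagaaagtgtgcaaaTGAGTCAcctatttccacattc
TGANTCA was found in 8 of these 10 genes and in 2 of the other 36 members, Mmp9 and Mmp19, while 6.00% of all 20107 promoters held it. The Mmp20 match reads TGAATCA, with neither C nor G in the middle, and the 6.00% counts any middle base. The starts of the 8 matches lay between 35 and 95 bases before the gene's start. The letters of the 3 motifs do not allow a match of one to overlap a match of another. TATAAA on either strand was found in 7 of the 10, in 5 of the other 36 members and in 11.7% of all promoters, and GGGCGG in 0 of the 10, 22 of the 36 and 45.8%. The 10 promoters had a median GC content of 41.8% and a median observed-to-expected CpG ratio of 0.139 within 500 bp of the start, against 58.9% and 0.629 in the other 36 members and 56.0% and 0.602 in all promoters. Some of the windows also share bases outside the match, such as those of Mmp1a and Mmp1b, so the 10 promoters cannot be counted as independent. These are matches of letters, and binding was not measured.

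RNA of AP-1 subunits was measured in the same libraries. Fos had 20.9 and 2.81 FPKM in MEFs, 185 and 107 FPKM in pre-iPSCs and 67.7 and 71.0 FPKM in iPSCs, and rose in pre-iPSCs (log2 change 3.95 ± 0.59; limma, adjusted p = 0.0056) and in iPSCs (2.94 ± 0.59; limma, adjusted p = 0.0117) against MEFs. Fosb rose in pre-iPSCs against MEFs (4.16 ± 0.77; limma, adjusted p = 0.0117), and Jun, with 35.1 and 23.9 FPKM in MEFs, 39.1 and 44.2 FPKM in pre-iPSCs and 23.0 and 31.5 FPKM in iPSCs, did not pass in any comparison. Of the list of 11 AP-1, ETS and Runx factors, 2 rose and 2 fell in pre-iPSCs against MEFs, and 1 rose and 5 fell in iPSCs against MEFs. In iPSCs against pre-iPSCs, 1 fell. Over all genes tested, 7.39% rose and 9% fell, 10.3% rose and 15.5% fell, and 3.91% rose and 4.71% fell in these comparisons, in this order. Ets1, Fosl2 and Runx2 were among those that fell in iPSCs against MEFs, by log2 changes of -2.90, -2.94 and -2.66.

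Among the Adamts genes that cleave the proteoglycans aggrecan and versican, Adamts1 and Adamts5 fell. Adamts5, a main aggrecanase of cartilage, had 13.7 and 28.7 FPKM in MEFs, 0.324 and 0.136 FPKM in pre-iPSCs and 0.303 and 0.489 FPKM in iPSCs. Every reprogrammed library was below 0.5 FPKM, and no MEF library was below 13. It fell by -4.09 ± 0.41 in pre-iPSCs (limma, adjusted p = 0.0017) and by -3.91 ± 0.41 in iPSCs (limma, adjusted p = 0.0014) against MEFs, and both calls held in every alternative. Adamts1 had 40.7 and 15.3 FPKM in MEFs, 2.72 and 2.19 FPKM in pre-iPSCs and 0.634 and 2.24 FPKM in iPSCs. It fell by -2.92 ± 0.56 in pre-iPSCs (limma, adjusted p = 0.0136; 0.0601 with no filter on low values) and by -3.50 ± 0.56 in iPSCs (limma, adjusted p = 0.0054; 0.072 without the first iPSC library) against MEFs. Adamts1 and Adamts5 are neighbours on the minus strand of chromosome 16, 55041 bp apart. Both fell in RNA and gained H3K27me3 reads, and the bases upstream of Adamts1 are shown for that reason. Capitals mark GGGCGG and TATAAA in either orientation.
Adamts1 (chr16:85803361-85803510, minus strand): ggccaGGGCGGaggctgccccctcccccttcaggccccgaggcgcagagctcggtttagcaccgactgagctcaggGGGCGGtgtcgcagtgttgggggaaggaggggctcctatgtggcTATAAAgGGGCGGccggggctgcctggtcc
Adamts4, another aggrecanase, had means of 1.72, 1.68 and 0.879 FPKM, Adamts9 of 1.66, 0.149 and 0.965 FPKM, and neither passed in any comparison. Adamts8, Adamts15 and Adamts20 stayed below 0.5 FPKM in every library.

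Of the procollagen N-proteinases, which remove the amino-terminal propeptides of fibrillar collagens, Adamts2 fell. It had 6.80 and 7.47 FPKM in MEFs, 1.25 and 0.606 FPKM in pre-iPSCs and 0.695 and 1.34 FPKM in iPSCs. The log2 changes were -2.09 ± 0.38 in pre-iPSCs (limma, adjusted p = 0.0111) and -2.03 ± 0.38 in iPSCs (limma, adjusted p = 0.0092) against MEFs, and missed the threshold without the second pre-iPSC library (limma, adjusted p = 0.144) and without the first or second iPSC library (limma, adjusted p = 0.097 and 0.051). Adamts14 had means of 2.77, 0.804 and 1.99 FPKM and passed in none, and Adamts3 was not tested.

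Adamts7 and Adamts12 are the pair of Adamts proteases known to cleave cartilage oligomeric matrix protein, and they differed. Adamts7 had 2.85 and 0.689 FPKM in MEFs, 11.5 and 9.54 FPKM in pre-iPSCs and 1.098 and 0.814 FPKM in iPSCs. It was the only member highest in pre-iPSCs among those tested. It rose from MEFs to pre-iPSCs by 2.17 ± 0.40 (limma, adjusted p = 0.0120; 0.070 without the second pre-iPSC library and 0.0512 with no filter on low values) and fell from pre-iPSCs to iPSCs by -2.56 ± 0.40 (limma, adjusted p = 0.0104; 0.142 and 0.104 without the first and the second iPSC library). Adamts12 had 10.3 and 0.923 FPKM in MEFs, 0.674 and 0.211 FPKM in pre-iPSCs and 0.0721 and 0.231 FPKM in iPSCs. The 2 MEF libraries differed widely, and the call in iPSCs against MEFs (-2.02 ± 0.61; limma, adjusted p = 0.0474) was lost without the first MEF library, at -0.81 (limma, adjusted p = 0.127), and without the first or second iPSC library (limma, adjusted p = 0.343 and 0.087), with no or a higher filter on low values (0.109 and 0.0531) and without the table term (0.0623). Adamts10 had 7.03 and 3.87 FPKM in MEFs, 4.92 and 5.82 FPKM in pre-iPSCs and 2.48 and 2.70 FPKM in iPSCs and passed in no comparison. Adamts6 had means of 3.42, 1.84 and 0.171 FPKM, also with no call.

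The other 20 members had too little signal to be tested: their highest value in any library was 1.76 FPKM, of Mmp12. They include Timp4, Mmp1a, Mmp1b, Mmp7, Mmp8, Mmp20, Mmp21, Mmp24, Mmp27, Mmp28, Adamts13, which cuts von Willebrand factor, and Adamts16 to Adamts19. Between 7 and 11 of the 46 members were listed at 0 in each library.

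Lists of genes that act with these proteases were read in the same comparisons. Over all genes tested, 7.39% rose and 9% fell in pre-iPSCs, and 10.3% rose and 15.5% fell in iPSCs against MEFs. In iPSCs against pre-iPSCs, 3.91% rose and 4.71% fell. Of 15 tested matrix substrates, 12 fell in pre-iPSCs and 12 in iPSCs against MEFs, 0 rose in any comparison (limma; 0, 1 and 0 at an unadjusted p under 0.05 in pre-iPSCs against MEFs, iPSCs against pre-iPSCs and iPSCs against MEFs), and 0 fell between pre-iPSCs and iPSCs (2 at an unadjusted p under 0.05), with a median log2 change of -3.26 in pre-iPSCs against MEFs and -3.39 in iPSCs against MEFs. Col1a1 had 2144 and 1614 FPKM in MEFs, 93.7 and 27.7 FPKM in pre-iPSCs and 74.7 and 70.6 FPKM in iPSCs. Of 12 tested activators and regulators, 5 fell and 1 rose in pre-iPSCs and 6 fell and 1 rose in iPSCs against MEFs. Among those that fell in both were Plau (urokinase), and Bmp1 and Tll1 (procollagen C-proteinases), and the one that rose was A2m, a general protease inhibitor. Of 7 tested ADAM proteases, 2 fell in pre-iPSCs and 4 in iPSCs against MEFs, and 1, Adam15, fell in iPSCs against pre-iPSCs. Of 4 tested ADAMTS-like proteins, which lack the protease domain, 1 rose and 1 fell in pre-iPSCs against MEFs and 2 fell in iPSCs against pre-iPSCs. Papln rose and then fell: it had 0.0681 and 0.0176 FPKM in MEFs, 2.20 and 1.48 FPKM in pre-iPSCs and 0.0352 and 0.0599 FPKM in iPSCs, and Adamts7 had the same pair of calls.

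Fibroblast markers moved in the direction of the members that fell. Of 12 tested fibroblast markers, 9 fell in pre-iPSCs and 9 in iPSCs against MEFs. Of all genes tested, 9% and 15.5% fell and 7.39% and 10.3% rose in these comparisons. In iPSCs, Col1a1 was at 4.0% and 3.8% of the MEF mean, next to Timp1 at 6.3% and 5.8%, Timp3 at 3.9% and 6.5%, Adamts5 at 1.4% and 2.3%, Timp2 at 11.1% and 12.9%, Mmp14 at 11.8% and 13.1%, and Mmp2 at 34.3% and 32.5%. Among the other fibroblast markers in iPSCs, Pdgfra was at 40.5% and 70.8% and Col3a1 at 14.1% and 18.6%. The rest, except Dcn and Lum, were at most at 10.14%. In pre-iPSCs, Col1a1 was at 5.0% and 1.5%, whereas Timp3 was at 25.3% and 61.1% and Mmp2 at 59.3% and 97.3%. Pdgfra was at 68.6% and 13.4% there, Dcn at 96.0% and 19.2%, Lum at 154% and 11.6%, and Thy1 at 21.4% and 6.5%. All other fibroblast markers were at most at 11.93% in pre-iPSCs. Dcn and Lum, both fibroblast markers, were above the MEF mean in both iPSC libraries but did not pass (limma, adjusted p = 0.463 and 0.283). Dcn had 30.2 and 40.5 FPKM in iPSCs and 9.005 and 36.6 FPKM in MEFs, so the cell types overlapped. Of 4 epithelial markers, 3 rose and 1 fell in pre-iPSCs against MEFs and 3 rose in iPSCs against MEFs, and of 3 tested endothelial markers 2 and 1 rose. The part of feeder fibroblasts in the FPKM of pre-iPSCs and iPSCs was not tested.

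At promoters, reads of called nucleosomes with the centre within 1000 bp of the gene's start were summed. The ChIP libraries held 67362868 to 108211816 reads in calls for H3 and 12007350 to 15222040 for the histone marks. Counts were compared with edgeR's quasi-likelihood test at an adjusted p below 0.05 over all distinct promoters that passed its filter. Levels are given as RPKM, reads scaled to the length of the window and to the uniquely mapped reads of the library.

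H3K4me3, a mark of active promoters, was called at few members, and most of these calls changed with the scaling between libraries. Of 45 tested, 1, Adamts16, was higher in pre-iPSCs than in MEFs (3.19% of all promoters were higher and 0.777% lower), 2 were higher and 1 lower in iPSCs than in MEFs (9.95% and 4.04%), and 1 was lower in iPSCs than in pre-iPSCs (0.0227% lower, 0.0284% higher). Adamts6 had 68 and 51 reads in MEFs, 45 and 49 reads in pre-iPSCs and 13 and 23 reads in iPSCs. It was lowest in both iPSC libraries, with a log2 change of -1.40 against MEFs (edgeR, adjusted p = 0.0011) and of -1.40 against pre-iPSCs (edgeR, adjusted p = 0.049). Without the first iPSC library these gave adjusted p = 0.078 and 0.716 (edgeR), and without the first or second pre-iPSC library the latter gave 0.135 and 0.584 (edgeR). Adamts16 had 14 and 13 reads in MEFs, 32 and 20 reads in pre-iPSCs and 22 and 26 reads in iPSCs and was higher than in MEFs in both (edgeR, adjusted p = 0.041 in pre-iPSCs and 0.037 in iPSCs), although its RNA was at most 0.117 FPKM. Removal of any 1 of the libraries compared ended these calls (edgeR, adjusted p between 0.055 and 0.380). Adamts18 had 36 and 19 reads in MEFs, 26 and 23 reads in pre-iPSCs and 55 and 35 reads in iPSCs (iPSCs against MEFs, edgeR, adjusted p = 0.012; 0.125 without the second MEF and 0.202 without the first iPSC library). With the uniquely mapped reads of each library as the scale in place of TMM, an alternative chosen after seeing the data, the median log2 change over all promoters moved from -0.01 to -0.40 in pre-iPSCs and from -0.03 to -0.38 in iPSCs against MEFs. The calls over all promoters then numbered 234 higher and 1131 lower in pre-iPSCs and 844 higher and 2371 lower in iPSCs. Of the 5 calls at members, 1 was kept, Adamts6 in iPSCs against MEFs (log2 change -1.76; edgeR, adjusted p = 0.00035), Adamts16 and Adamts18 were not called (adjusted p between 0.115 and 0.128), and Adamts12 in pre-iPSCs and Adamts10, Mmp2 and Mmp19 in iPSCs were called lower than in MEFs. DESeq2 called 0 of the 5, with 1, 3 and 3 members at an unadjusted p under 0.05 in pre-iPSCs against MEFs, iPSCs against pre-iPSCs and iPSCs against MEFs.

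At the promoters of the members whose RNA fell, the median H3K4me3 change in pre-iPSCs depended on the scaling, and that in iPSCs was below 0 on both scales. Of the 9 members that fell in pre-iPSCs against MEFs, 0 were called for H3K4me3 (edgeR; 0 at an unadjusted p under 0.05), and their log2 changes of H3K4me3 ran from -0.56 to 0.30 with a median of 0.01 after TMM, while the 16 tested members with no call in expression had a median of 0.01. Of the 11 that fell in iPSCs against MEFs, 0 were called (edgeR; 1 at an unadjusted p under 0.05), and the changes ran from -0.53 to 0.54 with a median of -0.28, against a median of 0.20 in the 12 tested members with no call in expression. On the scale of uniquely mapped reads, the mean RPKM of all 9 was lower in pre-iPSCs than in MEFs, for example 1.46 in MEFs and 0.76 in pre-iPSCs for Mmp16, and their log2 changes ran from -0.94 to -0.10 with a median of -0.39 (edgeR, 0 called and 2 at an unadjusted p under 0.05). The 16 members with no call in expression had a median of -0.38 on this scale and all promoters one of -0.40. Of the 11 that fell in iPSCs, 9 had a lower mean RPKM than in MEFs, with a median log2 change of -0.63 against -0.15 in the 12 with no call and -0.38 over all promoters, and 1, Mmp2, was called lower (edgeR, adjusted p = 0.047). Timp2 had 58 and 52 H3K4me3 reads in MEFs, 46 and 34 reads in pre-iPSCs and 38 and 35 reads in iPSCs. Timp1, the most abundant member, had 34 and 17 reads in MEFs, 22 and 19 reads in pre-iPSCs and 17 and 30 reads in iPSCs, so the cell types overlapped. Mmp25, whose RNA rose in iPSCs, had 33 and 43 reads in MEFs, 55 and 34 reads in pre-iPSCs and 54 and 36 reads in iPSCs.

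H3K27me3, the mark set by Polycomb repressive complex 2, was higher at more members in reprogrammed cells than in MEFs. Of 43 tested, 6 were higher and 1 lower in pre-iPSCs than in MEFs, where 5.01% of all 10179 tested promoters were higher and 3.26% lower. In iPSCs against MEFs, 5 were higher and 0 lower, where 7.28% were higher and 4.15% lower, and 4 members were lower at an unadjusted p under 0.05. Between iPSCs and pre-iPSCs, 0 were called by edgeR, with 6 at an unadjusted p under 0.05 (0.678% of all promoters were called higher, 0.138% lower). Timp2, Adamts1 and Adamts5 were higher in both comparisons with MEFs, which share the MEF libraries. The reads were not scaled to H3. In MEFs, pre-iPSCs and iPSCs, H3K9me3 reads (1 library each) were 9, 7 and 14 at Timp2 and 4, 8 and 11 at Adamts1. At Adamts5 they were 3, 14 and 14.

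The counts behind the H3K27me3 calls were small. Timp2 had 3 and 2 H3K27me3 reads in MEFs, 16 and 15 reads in pre-iPSCs and 21 and 26 reads in iPSCs. The cell types did not overlap, and the log2 change against MEFs was 2.61 in pre-iPSCs (edgeR, adjusted p = 0.0015; 0.056 without the second MEF library) and 3.15 in iPSCs (edgeR, adjusted p = 2.7e-05). Adamts1 had 0 and 2 reads in MEFs, 12 and 10 reads in pre-iPSCs and 18 and 13 reads in iPSCs. Scaled to unique reads, pre-iPSCs held 11.4 times as many as MEFs (95% exact binomial interval 2.80 to 100.01, counting error only) and iPSCs 16.1 times as many (4.09 to 139), with edgeR, adjusted p = 0.0026 in pre-iPSCs (0.051 without the first MEF library) and a call in iPSCs under every alternative that gave an adjusted p. Adamts5 had 3 and 7 reads in MEFs, 28 and 20 reads in pre-iPSCs and 17 and 17 reads in iPSCs, with log2 changes of 2.27 and 1.73 (edgeR, adjusted p = 0.00042 and 0.012). The call for Adamts5 in iPSCs was lost without the first MEF library (edgeR, adjusted p = 0.162) and without the first or second iPSC library (0.068 and 0.072).

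In pre-iPSCs against MEFs, H3K27me3 was also higher at Adamts14 (3 and 11 reads in MEFs, 18 and 28 in pre-iPSCs), Adamts9 (7 and 6 against 25 and 17) and Mmp27 (8 and 5 against 15 and 23). It was lower at the collagenase Mmp8, with 26 and 29 reads in MEFs, 10 and 8 reads in pre-iPSCs and 28 and 16 reads in iPSCs. In iPSCs against MEFs, it was higher at Adamts6, with 4 and 1 reads in MEFs, 5 and 5 reads in pre-iPSCs and 13 and 15 reads in iPSCs, and at Mmp19, with 5 and 8, 18 and 14, and 15 and 21 reads. Leaving out 1 library ended the calls at Adamts14 (edgeR, adjusted p = 0.151 and 0.162 without the first MEF and the second pre-iPSC library), Adamts9 (0.129 and 0.129, second MEF and first pre-iPSC library), Mmp27 (0.278 and 0.284, second MEF and second pre-iPSC library) and Mmp8 (0.070, second pre-iPSC library). It also ended those at Adamts6 (edgeR, adjusted p = 0.204 without the second MEF library, 0.087 and 0.104 without the first and second iPSC library) and Mmp19 (0.175, 0.099 and 0.251 without the first MEF, the second MEF and the second iPSC library). Adamts6 had fewer H3K4me3 and more H3K27me3 reads in iPSCs than in MEFs, and was the only member called for both marks after TMM (on the scale of uniquely mapped reads, Mmp19 was as well). Without 1 library at a time, between 4 and 7 members were called in pre-iPSCs against MEFs (4 without the second MEF or the second pre-iPSC library) and between 2 and 5 in iPSCs against MEFs (2 without the second iPSC library, 3 without the first MEF library).

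The H3K27me3 calls depend on the tool and the window, and some depend on the filters. DESeq2 on the same counts called 0 of the 12, with 9 at an adjusted p between 0.054 and 0.437 and 3 without an adjusted p, and with 6, 2 and 4 members at an unadjusted p under 0.05 in pre-iPSCs against MEFs, iPSCs against pre-iPSCs and iPSCs against MEFs. Within 500 bp of the start, 18 members had enough reads to be tested and edgeR called 0. In these comparisons, 2, 0 and 1 were at an unadjusted p under 0.05. With no filter on low counts, 10 of the 12 calls were kept, and 10 were kept with nucleosome calls of at least 2 reads.

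Not every inhibitor or protease that fell was called for H3K27me3. Timp1 had 3 and 5 reads in MEFs, 4 and 2 reads in pre-iPSCs and 6 and 3 reads in iPSCs, too few for the test. Timp3 had 4 and 10 reads in MEFs, 13 and 11 reads in pre-iPSCs and 16 and 14 reads in iPSCs, and Mmp14 had 6 and 2, 11 and 9, and 7 and 15 reads. Neither Timp3 (edgeR, adjusted p = 0.336 and 0.116 in pre-iPSCs and iPSCs against MEFs) nor Mmp14 (0.187 and 0.115) passed. Of the 9 members that fell in pre-iPSCs against MEFs, 8 could be tested for H3K27me3, 3 were called higher, and all 8 had a log2 change above 0, with a median of 1.21. Among the 16 tested members with no call in expression, 15 could be tested, 2 were called, and 11 were above 0, with a median of 0.92. Of the 11 that fell in iPSCs against MEFs, 10 could be tested, 3 were called higher, 8 were at an unadjusted p under 0.05, and 9 were above 0, with a median of 1.33. Among the 12 with no call in expression there, 11 could be tested, 2 were called, 5 were at an unadjusted p under 0.05, and 9 were above 0, with a median of 0.64. The difference between these sets was not tested. The filter of the test asks for enough reads in some libraries. A member with few reads in MEFs, such as Timp2 or Adamts1, could therefore enter only through reads of pre-iPSCs or iPSCs. For such members the sign of the change was set by the filter, so the counts above 0 and the medians cannot be read as a result.

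**Figure D3:**
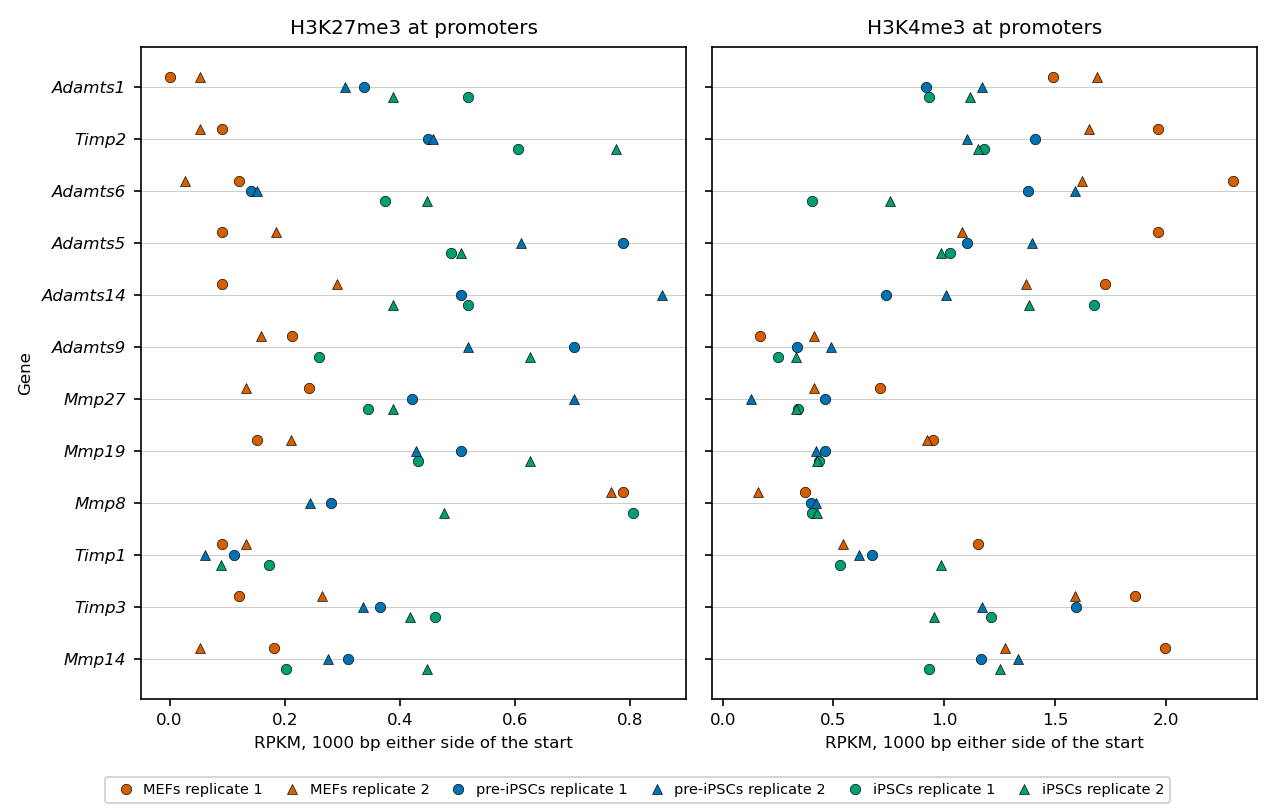
H3K27me3 (left) and H3K4me3 (right) RPKM within 1000 bp of the start for 12 members, 1 point a library. H3K27me3 at Timp2, Adamts1 and Adamts5 is lower in both MEF libraries than in the other 4, that at Timp1 overlaps between cell types, and H3K4me3 at Adamts6 is lowest in the 2 iPSC libraries.

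Promoters were also classed by the study's threshold of 1 RPKM within 500 bp of the start. It was applied here to the mean of both libraries and to reads in nucleosome calls, which were 80.3% to 81.4% of the unique reads, so it is stricter than with all reads. By this rule, H3K4me3 alone marked 24 of the 46 members in MEFs, 18 of them in pre-iPSCs and 20 of them in iPSCs. The shares over all promoters were 53.2%, 38.4% and 42.4%. H3K27me3 alone marked 2 members in MEFs, 1 member in pre-iPSCs and 1 member in iPSCs (1.29%, 0.875% and 0.502% of all promoters), and 0 members carried both marks in any cell type (0.532%, 0.353% and 0.428%). Taken library by library, H3K4me3 passed 1 RPKM at 28 members in the first MEF library but at 19 in the second. For pre-iPSC libraries the numbers were 19 and 16, for iPSC libraries 19 and 17. The second MEF library thus did not exceed the first library of either other cell type. Over all promoters, the MEF libraries stayed highest, at 56.6% and 47.8%, against at most 45.2% in the others. By the mean, Adamts13 was in the H3K27me3 class in MEFs and pre-iPSCs, Adamts16 in MEFs and Mmp9 in iPSCs. Timp2, Timp3, Mmp14, Adamts1 and Adamts5 stayed in the class with H3K4me3 alone in all cell types, and Timp1 stayed in the class with neither mark although its RNA was the highest. Adamts12, Adamts20, Mmp16 and Mmp19 were in the H3K4me3 class in MEFs only, Mmp2 and Adamts6 in MEFs and pre-iPSCs. These classes use the scale of uniquely mapped reads. On it, the median log2 change of H3K4me3 over all promoters against MEFs was -0.40 (pre-iPSCs) and -0.38 (iPSCs). A class held in MEFs only can therefore not be read as particular to these members. All 10 genes of the chromosome 9 group had neither mark in every cell type. Their median H3K4me3 was 0.255 to 0.403 RPKM across libraries, against 0.958 to 1.37 RPKM in the other 36 members.

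**Figure D4:**
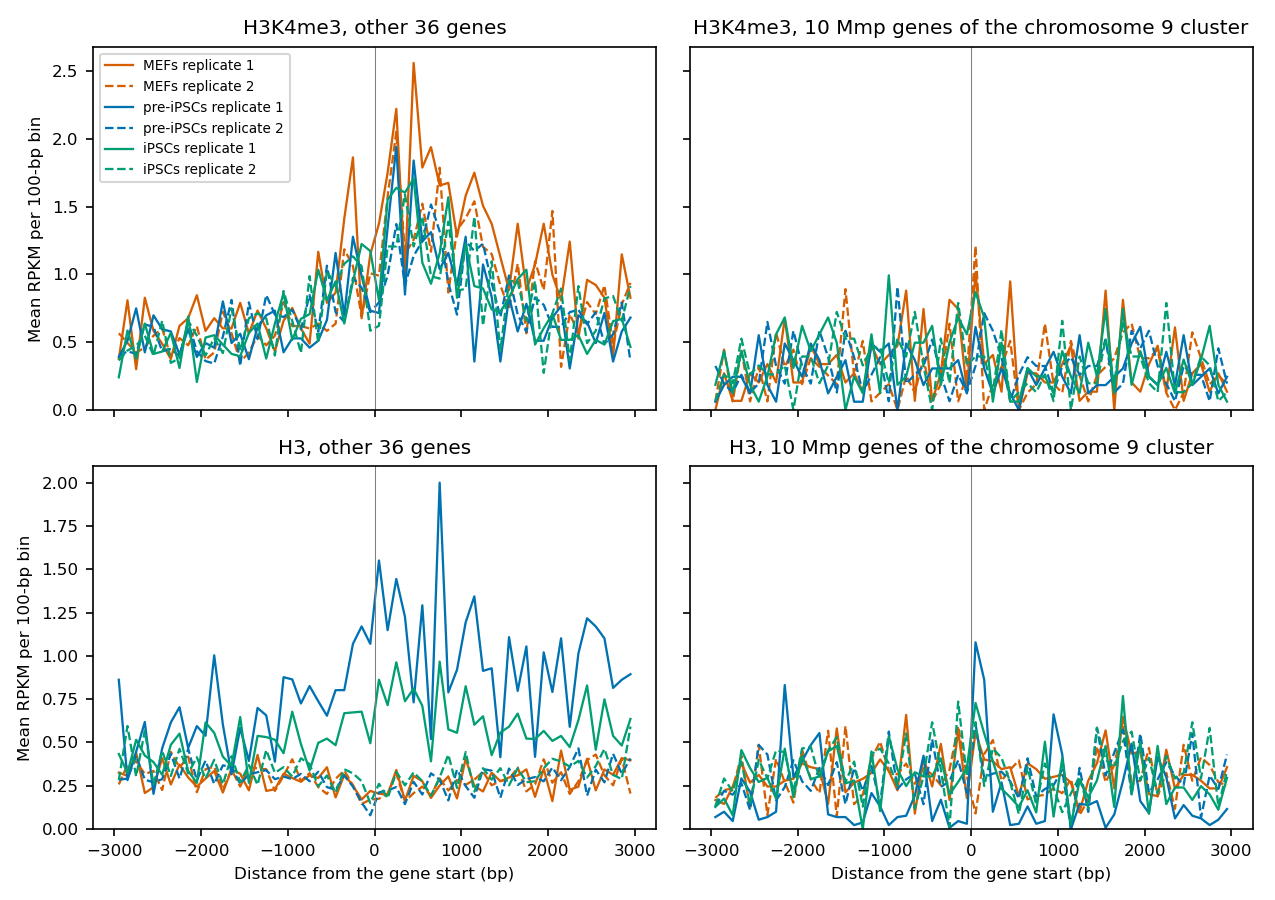
Mean H3 and H3K4me3 RPKM in 100-bp bins by distance from the gene's start, for the 10 Mmp genes of the chromosome 9 group and the other 36 members, by cell type and replicate. H3K4me3 of the other 36 members peaks downstream of the start (up to 2.56 RPKM, in the first MEF library), whereas the 10 grouped genes reach at most 1.21 RPKM.

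H3K9me3, a mark of heterochromatin, had 1 library a cell type, so its differences have no replicate check and no test. A promoter was counted where the RPKM of the 2 libraries compared differed 2-fold and they held at least 20 reads together. Of the 22 members with 20 reads, pre-iPSCs exceeded MEFs at 3 (Mmp1b, Mmp8 and Mmp19) and were lower at 0, where 6.88% of all promoters were higher and 8.53% lower. Of 25, 4 were higher in iPSCs than in MEFs (Mmp1b, Mmp2, Mmp10 and Mmp19) and 1 lower (Mmp21), where 12.8% were higher and 6.45% lower. Of 28, 6 were higher in iPSCs than in pre-iPSCs, among them Timp2, Mmp2 and Adamts6, and 1 lower, Adamts9, where 10.1% were higher and 4.29% lower. These counts depend on the window: within 500 bp, 0 members were past 2-fold in pre-iPSCs against MEFs, 2 in iPSCs against MEFs and 1 in iPSCs against pre-iPSCs. Read counts in MEFs, pre-iPSCs and iPSCs, in this order, were 11, 10 and 22 for Mmp2, 8, 24 and 19 for Mmp19, and 2, 7 and 17 for Adamts6.

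H3 reads, which count nucleosomes irrespective of marks, gave no call at any member: 0 of 46 passed in each comparison by edgeR (3, 0 and 2 at an unadjusted p under 0.05 in pre-iPSCs against MEFs, iPSCs against pre-iPSCs and iPSCs against MEFs) and by DESeq2 (1, 0 and 2), and 0% of all promoters were called. The replicates of pre-iPSCs and iPSCs stood apart. The median member had 46.5 and 50.5 reads of H3 in the MEF libraries, 217 and 44.5 reads in those of pre-iPSCs and 134.5 and 55 reads in those of iPSCs. At the promoter of Mmp9 these were 44 and 77, 569 and 58, and 257 and 95 reads, whereas Mmp12 of the chromosome 9 group had 62 and 63, 10 and 53, and 80 and 48 reads. Across the 46 members, which share each library, Spearman's rho between H3 RPKM and GC content was -0.39 and -0.27 in the MEF libraries, 0.71 and -0.44 in those of pre-iPSCs and 0.59 and -0.43 in those of iPSCs. The first libraries of pre-iPSCs and iPSCs therefore had more H3 at GC-rich member promoters than the second. Without the second pre-iPSC library, members were called in pre-iPSCs against MEFs, in both directions, and in iPSCs against pre-iPSCs. These calls rest on the first library alone, the one whose H3 followed GC content, with the spread taken from the other cell types. The share of all promoters called in that fit is not given here. The part of the MNase digestion, which also differed between MEFs and the other cells, was not tested, and for the marks rho did not change sign between replicates.

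**Figure D5:**
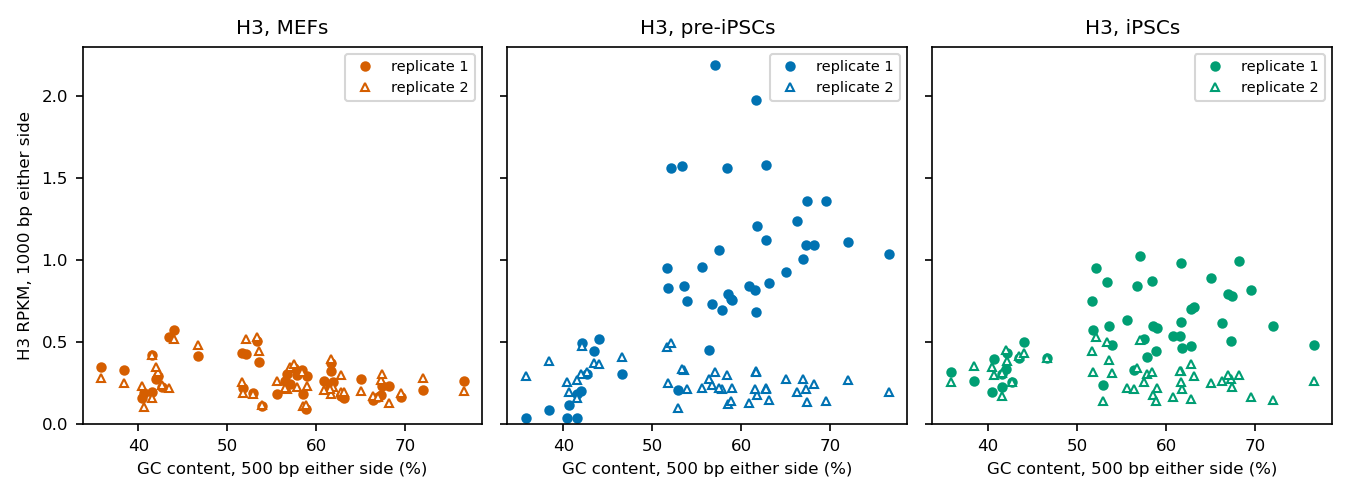
H3 RPKM within 1000 bp of the start against GC content (%) within 500 bp of the start, 1 point a member, by cell type; filled and open points are replicates 1 and 2. H3 in the first replicate of pre-iPSCs tends to rise with GC content (Spearman's rho 0.71). Its highest point, over 2 RPKM, is Mmp9 at 57.0% GC. The second replicate of pre-iPSCs and both MEF replicates stay below 0.6 RPKM.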

How the data were processed

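Mouse MEFs, pre-iPSCs and iPSCs were profiled by RNA-seq (6 libraries) and by MNase-ChIP-seq (21 libraries). The authors mapped the ChIP libraries with Bowtie (1.0.1; mm9, unique hits only), shifted reads by 73 bp and called nucleosomes; the deposited read count of each call was summed within 1000 bp of each start here. The authors made FPKM with TopHat2 (2.0.4) and Cufflinks (2.0.2), in 2 tables normalized apart, and these deposited FPKM were used as log2(FPKM + 1). The deposited nucleosome fuzziness was not used. RPKM were scaled to the unique reads of the study. Columns of other samples numbered 0. ChIP reads in calls numbered 67362868 to 108211816 for H3 and 12007350 to 15222040 for the marks, and intervals cover counting error only. Libraries titled as repeats are replicate 2.

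FPKM were tested with limma (3.58.1; trend, with the table in the model; genes averaging 0.5 FPKM or more; threshold 0.05 for the adjusted p and 1 for the log2 change). Promoter counts went into the quasi-likelihood test of edgeR (4.0.16; TMM, filterByExpr, all 6 libraries of a mark), with DESeq2 (1.42.0) and scaling to uniquely mapped reads as alternatives, in R (4.3.3). The scripts were tested on simulated data. Members named with values in each library passed a test or reached a mean of 5 FPKM in a cell type; those with a mean of 1 FPKM are given by means. At promoters, members called for a mark and those named for expression are described, and Mmp12 was named for H3 after its values were seen. Members and lists were chosen with earlier results of these data known. Sequences are from the mm9 genome. A gene of a fixed list and a promoter sequence are not reported here.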

Additional observations from a re-analysis of the deposited data

How the results depend on the processing

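In all alternatives run, no call changed direction. Of 28 expression calls, 28 were kept with a pseudocount of 0.1, 26 after quantile normalization and 20 with no filter on low values, where pre-iPSCs against MEFs had 6 members called instead of 10. Quantile normalization moved the median log2 change of all genes in iPSCs against MEFs from -0.14 to 0.05, and that of the members from -0.74 to -0.75. Leaving out 1 library left a cell type with 1 library, assumed to vary like the others, and gave 4 to 15 members in pre-iPSCs against MEFs, 0 to 8 in iPSCs against pre-iPSCs (0 without either iPSC library, 8 without either MEF library, 2 without the second pre-iPSC library) and 5 to 16 in iPSCs against MEFs (5 and 8 without the first and second iPSC library). For promoters it gave 0 to 1, 0 to 1 and 0 to 3 members for H3K4me3, 4 to 7, 0 to 0 and 2 to 5 for H3K27me3, and 0 to 16, 0 to 7 and 0 to 0 for H3. H3K4me3 members called fell to 0 in all comparisons under DESeq2, to 0 in pre-iPSCs against MEFs and in iPSCs against pre-iPSCs within 500 bp or with calls of at least 2 reads, and to 0 in iPSCs against pre-iPSCs under DESeq2's size factors in edgeR, where over all promoters 5 higher and 4 lower calls became 4 and 2. With uniquely mapped reads as the scale in place of TMM, chosen after seeing the data, 1 of 5 H3K4me3 calls was kept, with 0 members in iPSCs against pre-iPSCs, and all 12 H3K27me3 calls; the median log2 change of H3 over all promoters was 0.92 in pre-iPSCs and 0.60 in iPSCs against MEFs on this scale, with 0 members called. H3K27me3 members called fell to 0 in both comparisons with MEFs under DESeq2 or within 500 bp; the smaller window had too few reads for 10 of the 12 calls. For H3K9me3, members past 2-fold numbered 0, 1 and 2 within 500 bp in pre-iPSCs against MEFs, iPSCs against pre-iPSCs and iPSCs against MEFs, and 4 in iPSCs against pre-iPSCs with calls of at least 2 reads. With reads in all calls as the scale, both marks were present at 1 member in pre-iPSCs and 1 in iPSCs, and H3K27me3 alone at 3 and 2. Within 1000 bp, both marks were present at 1 member in pre-iPSCs, and H3K27me3 alone at 4 members in MEFs, 2 members in pre-iPSCs and 0 members in iPSCs. Elsewhere the cause of a lost call was not tested. Except where calls over all promoters are given, the share of all genes or promoters called in an alternative is not given here. The counts of members called in the alternatives, here and above, can therefore not be read as particular to the members.

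In expression, the table term of the reported fit is also the replicate block, since each table holds the libraries of 1 replicate number. In the promoter counts, the numbers were not used as a block, since the sources do not tie a library to a clone. Deviations of same-numbered libraries correlated at 0.35, 0.11 and -0.20 in expression. They correlated between -0.05 and 0.12 for H3K4me3 and between -0.05 and 0.03 for H3K27me3. For H3 the values were -0.03, 0.80 and 0.0055, and the same-numbered pre-iPSC and iPSC libraries deviated together. With the replicate block, the 12 H3K27me3 calls were kept and 4 of 5 H3K4me3 calls, with 0 members in iPSCs against pre-iPSCs. For H3, edgeR called 0 members in each comparison with and without the block, with 6, 0 and 3 members at an unadjusted p under 0.05 with it and 3, 0 and 2 without it (pre-iPSCs against MEFs, iPSCs against pre-iPSCs and iPSCs against MEFs). Without the table term in expression (no replicate block), 26 of 28 calls were kept.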
